A study of Oryctolagus cuniculus with 4 samples.

Results

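A group of 124 spots lay at one edge of a rabbit supraspinatus muscle section taken 16 weeks after tenotomy. In these spots MYH8 and MYL4, a myosin heavy chain and a myosin light chain of developing muscle, were far above their level in the rest of the section. The spots were chosen by their barcode. A barcode marks the same place in every capture area of the slide, and these 124 barcodes were counted in the 16-week and the fresh healthy sections but in neither the stored healthy nor the 2-week section. They are 124 of the 1726 spots of the 16-week section and of 6970 spots in all 4 sections. Because this set was picked out of the 8 such position groups of the section for its share of MYH8, its MYH8 level and all other gene levels in the same spots are a description and carry no test.

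The 16-week section came from a skeletally mature female New Zealand White rabbit aged 6 months, the age, sex and strain given for all animals of the study. The supraspinatus tendon, part of the rotator cuff, had been cut (tenotomy), and the muscle was snap-frozen 16 weeks later and stored for 6 years. With 1 section each, the other conditions were healthy muscle, either fresh or stored for 6 years, and muscle frozen 2 weeks after tenotomy and stored for as long. The labels of the stored healthy and the 16-week sections share a number and differ in the letters R and L, and whether they come from 1 animal is not stated in the sources used here. Per the study's methods the sections lay in the muscle belly away from fascia, tendon and their junction, so the group is a place in 1 section of 1 animal, not a sorted cell type.

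Muscle fibers build their contractile units from families of myosin, actin and troponin genes that are exchanged as the muscle matures. MYH8, the perinatal myosin heavy chain, and MYL4, the light chain of embryonic muscle and of the heart atrium, are normally replaced by adult isoforms, and they are made again in fibers that regenerate. ACTC1, the cardiac actin gene, follows a similar course in skeletal muscle. A Visium spot collects polyadenylated RNA from several cells at once, so that in a spot fewer cells of a type and less RNA per cell cannot be told apart.

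In the group 298143 unique molecular identifiers (UMIs, each standing for 1 captured RNA molecule) were counted, which were 6.29% of the section's UMIs in 7.18% of its spots. A group spot had a median of 1862.5 UMIs, with quartiles of 1229.75 and 2665.5 and a range of 250 to 12439. The other 1602 spots had a median of 2116 UMIs and quartiles of 1137.5 and 4033. To compare spots of like depth, 5 of the other spots were matched to each group spot by total UMIs, and these 620 like-depth spots had a median of 1860. The group also differed in makeup, since mitochondrially encoded genes took 19.8% of its UMIs, 35.6% of those of the other spots and 33.6% of those of the like-depth spots. A median of 654.5 genes was detected per group spot, compared with 624 in the other and 589 in the like-depth spots. General muscle genes were found in each of the 124 group spots, at a summed level of 41.4 to 329. All levels are UMIs per 10000 UMIs, and intervals are exact at 95% and cover counting error only.

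The group was a compact area. Barcodes and array positions are listed separately, but the number of barcodes equaled the number of tissue positions in 15 of 15 combinations of sections, so the group as a whole could be placed on the array, though not its single spots. The 16-week section shared 1377 of its barcodes with the fresh healthy, 1454 with the stored healthy and 602 with the 2-week section. Of the 124 positions, 113 (91.1%) formed 1 contiguous piece between array rows 15 and 33 and array columns 89 and 111, at the corner of the tissue. The 11 other positions lay in 5 small pieces, of which the largest held 6. Positions at the border of the tissue made up 28.2% of the group (35 positions) and 17.1% of the other positions (274). Of the 56 positions that touched the main piece, 30 were off the tissue, 19 were shared by the 16-week, fresh healthy and stored healthy sections, and 7 were under tissue in the 16-week section alone.

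**Figure D1:**
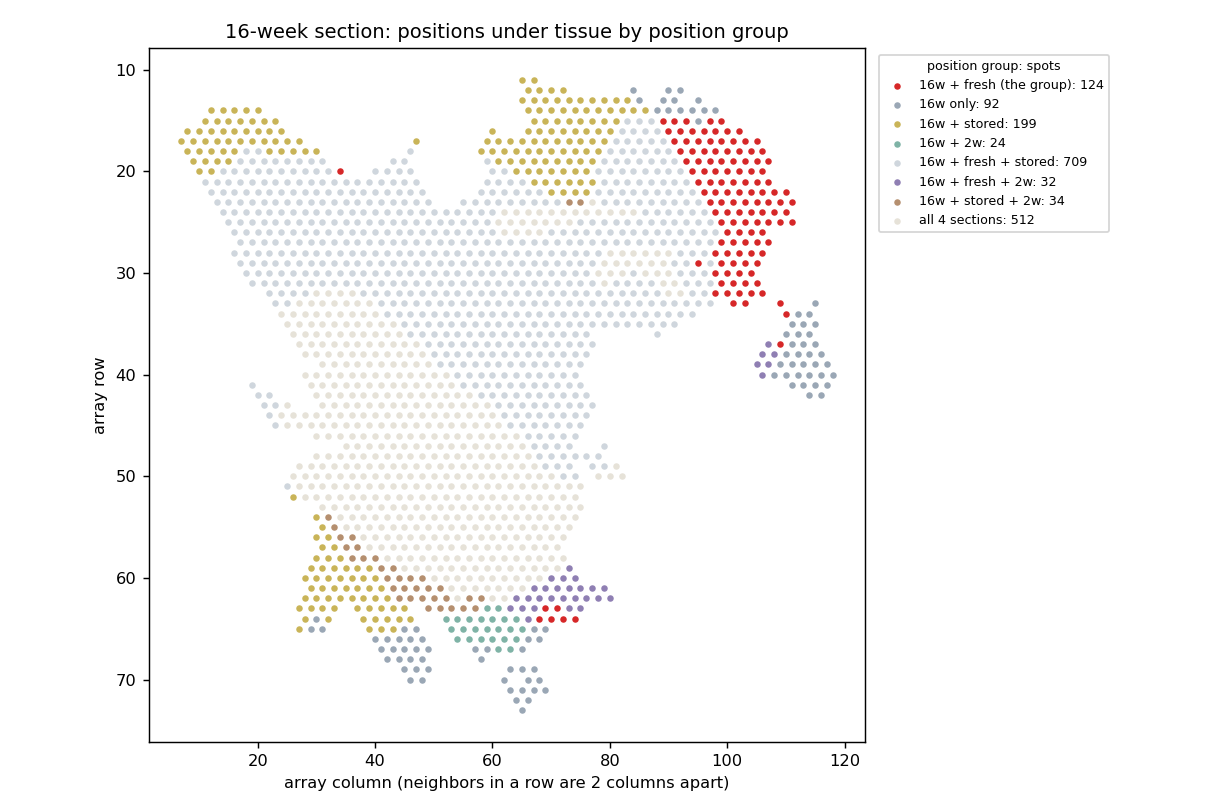
Array row and column of each tissue position of the 16-week section, colored by the sections in which the position was under tissue. The red group forms 1 piece of 113 positions at the upper right edge of the tissue, and 11 positions lie elsewhere.

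MYH8 (ENSOCUG00000010229) had 119 UMIs in the group and 89 in all other spots, so that 57.2% of the section's MYH8 UMIs lay in the group. Its level was 3.99 in the group (95% interval 3.31 to 4.78), 0.200 in the other spots and 0.128 in the like-depth spots. This is 19.9-fold above the other spots (log2 ratio 4.32, interval 3.91 to 4.73) and 30.4-fold above the like-depth spots (4.93, interval 4.25 to 5.74). The second value depended on the matching. It was 11.8-fold with spots matched on non-mitochondrial UMIs and 12.5-fold with spots matched on UMIs and muscle share, and the other spot with most MYH8, with 29 UMIs, was not among the like-depth spots. At least 1 MYH8 UMI was found in 41 of the 124 group spots, 33.1% (interval 24.9 to 42.1), in 49 of the 1602 other spots, 3.06%, and in 16 of the 620 like-depth spots, 2.58%. With every spot thinned to 1000 UMIs, which left out 19 group spots and 333 other spots, the shares were 24.8% and 1.42%.

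MYL4 (ENSOCUG00000010829) was found in more spots of the group than MYH8. It had 233 UMIs in the group, 47.9% of the section's total, and 253 in the other spots. The level was 7.82 in the group, 0.569 in the other spots and 0.399 in the like-depth spots, with log2 ratios of 3.78 (interval 3.52 to 4.04) and 4.28 (3.87 to 4.73). At least 1 UMI was found in 61 group spots (49.2%) and in 127 of the other spots (7.93%).

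Some other sarcomere genes of developing muscle were also higher in the group. A gene was compared if it had at least 100 UMIs in the section, which 2340 of 21139 genes did. Of these genes, 14.4% were 2-fold or more higher in the group than in the other spots, and 9.4% were so against the like-depth spots. The list of developmental sarcomere genes has 8 measured members (those with at least 100 UMIs), MYH8 and MYL4 among them. Of the 6 members apart from these, 4 passed 2-fold against the other spots and 3 against the like-depth spots, with median log2 ratios of 1.07 and 1.04, beside 0.42 and 0.33 for all genes. MYBPH, a myosin-binding protein of the thick filament, had a level of 3.96 in the group and 0.958 in the other spots (log2 ratio 2.05, interval 1.74 to 2.34). ACTC1 had 37.1 and 17.9 (1.06, interval 0.96 to 1.15). At least 1 of its UMIs was found in 87.9% of group spots, 76.2% of the other spots and 75.3% of the like-depth spots. Without the group spot in which it was highest, the ratio of ACTC1 was 0.91, below 2-fold. In the 92 spots found in the 16-week section alone its level was 26.4. ANKRD1, an ankyrin repeat protein that binds titin and responds to load, had 7.14 and 1.09 (2.72, interval 2.48 to 2.95). Healthy muscle also held much ANKRD1, with 22.3 in the fresh and 5.92 in the stored section. ACTA2, the smooth muscle actin that immature muscle also makes, had 6.47 and 3.04 (1.09), but against the like-depth spots its ratio was 0.79. Neither CSRP3, a Z-disc protein, at 0.44 nor TNNI1, the slow troponin I, at 0.09 passed 2-fold. The list also names MYH3, the embryonic myosin heavy chain. No feature in the count table carries its symbol, and features without a symbol may hold it, so it was not measured here.

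**Figure D2:**
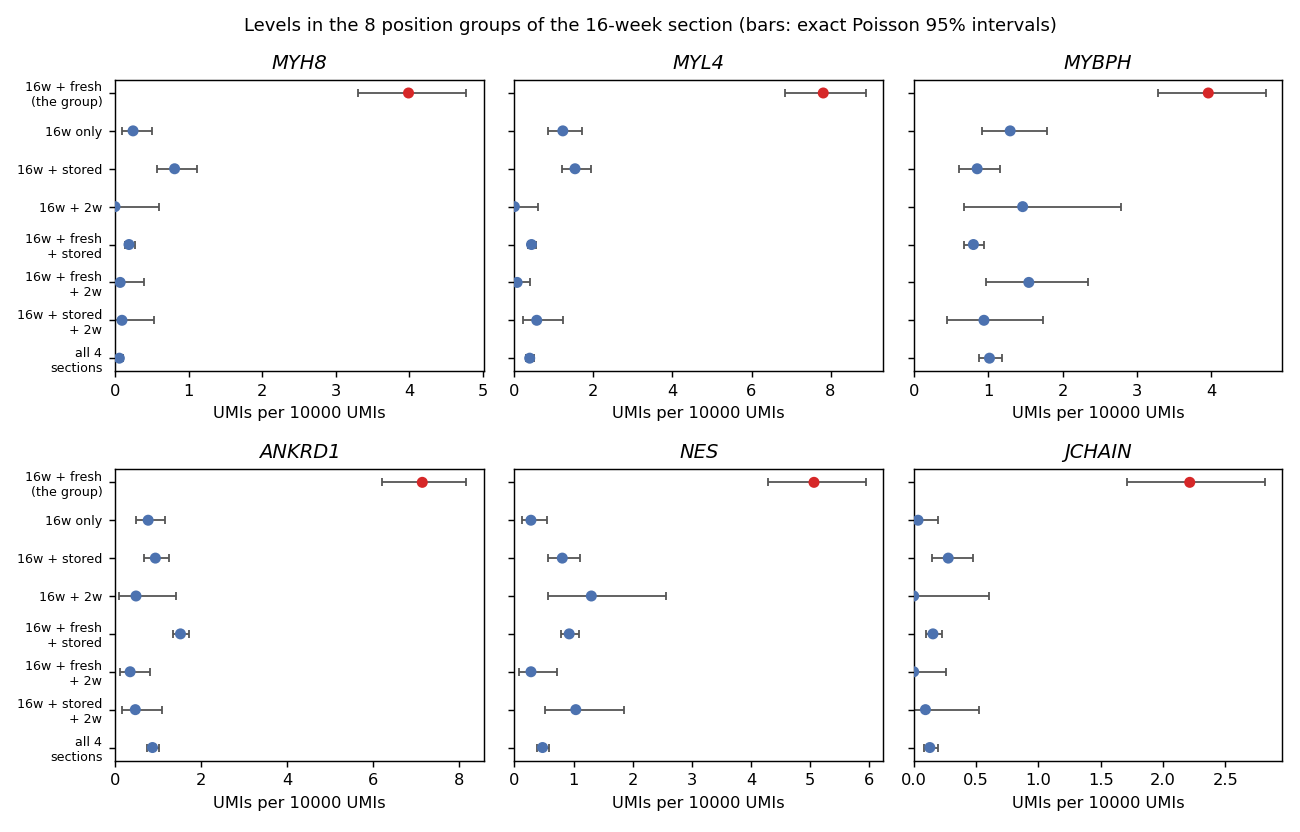
UMIs per 10000 UMIs of 6 genes in the 8 position groups of the 16-week section, with exact Poisson 95% intervals for counting error. The group (red) has a MYH8 level of 3.99, and the next highest of the other 7 groups is at 0.810.

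Markers of other tissues moved with these genes, and their part in the result was not tested. All 8 measured genes of the connective tissue list lay above the median gene, and their summed level ranged from 16.9 to 681 over the group spots (median 239) and from 0 to 956 over the other spots (median 60.01). Of the 6 measured macrophage genes 5 lay above the median gene, with a range of 0 to 78.6 over the group spots and 0 to 80.7 over the others. PAX7, which marks satellite cells, the stem cells of muscle, had 0 UMIs in the whole section, and MYOG, a factor of differentiating myoblasts, had 0 in the group and 4 elsewhere. The 8 measured general muscle genes took 1.76% of the group's UMIs and 2.14% of those of the other spots. The comparison spots were also matched on this muscle share as well as on depth (620 spots, median 1778 UMIs). The log2 ratio was then 3.65 for MYH8, 3.75 for MYL4, 3.15 for ANKRD1, 1.84 for MYBPH and 1.12 for ACTC1. It was 0.51 for ACTA2, 0.52 for CSRP3 and 0.21 for TNNI1, beside 0.30 for the median gene. List medians were 1.35 for connective tissue, 1.38 for macrophage and -0.02 for general muscle genes. The developmental sarcomere list had 1.48, but that median includes MYH8, the gene the group was picked for, and MYL4. Of its 6 other members, ANKRD1 and MYBPH lay above the connective tissue and macrophage medians, and ACTC1, ACTA2, CSRP3 and TNNI1 below them. The 2 measured lymphocyte and plasma cell genes had a median of 3.02. Of these, JCHAIN reached the minimum count only through its UMIs in the group.

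Within the group the MYH8 counts were uneven. Of the 41 spots with MYH8, 23 had a single UMI and 5 had at least 5, with counts of 37, 9, 6, 5 and 5. The top spot thus held 31.1% of the group's MYH8 UMIs, and the 3 highest held 43.7%. It was also the deepest spot of the group, with 12439 UMIs, of which 15.4% were mitochondrial. It held 22 MYL4, 146 ACTC1, 71 ANKRD1 and 23 NES UMIs, beside 260 of MYH7, the slow adult myosin. The same spot held 212 COL3A1 and 12 COL1A1 UMIs, the highest counts of both genes in the group. Its summed connective tissue level was 474, compared with a median of 239 over the group spots. Without this spot the log2 ratio of MYH8 against the other spots was 3.84, and without the 3 highest it was 3.61. MYL4 was spread more evenly, since its highest counts were 22, 21, 16, 15 and 12 and its top spot held 9.44% of its UMIs.

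MYH8 and MYL4 were often found in the same spots. Both had a UMI in 28 group spots, 13 had MYH8 alone, 33 had MYL4 alone and 50 had neither. MYL4 was thus found in 68.3% of the group spots with MYH8 and in 39.8% of those without. In the rest of the section it was found in 10 of the 49 spots with MYH8 (20.4%) and in 7.53% of the others. Group spots with MYH8 were deeper, with a median of 2253 UMIs compared with 1558, and the part of depth in this overlap was not tested.

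**Figure D3:**
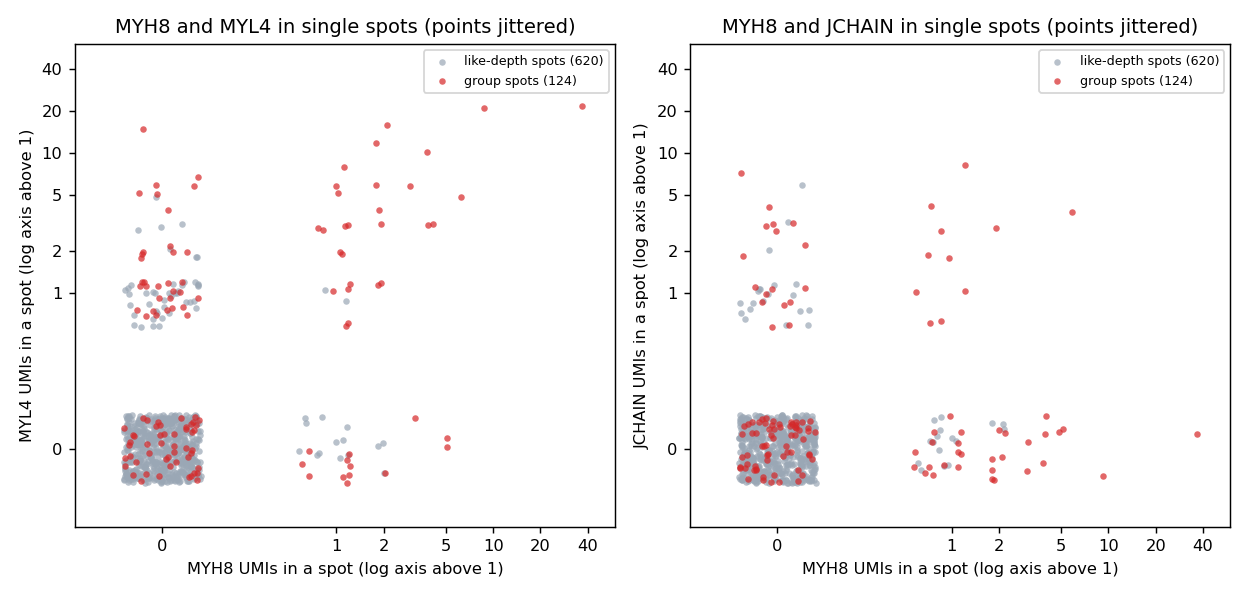
UMIs of MYH8 (horizontal) against MYL4 or JCHAIN (vertical) in single spots of the group (red, 124) and in the like-depth spots (gray, 620), with points jittered and both axes logarithmic above 1. The spots with most MYH8, at 37 and 9 UMIs, also have 22 and 21 MYL4 UMIs, while neither of them has JCHAIN. The next, at 6 MYH8 UMIs, has 5 MYL4 and 4 JCHAIN UMIs, and those at 5 have 0 of both.

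The 41 group spots with MYH8 also differed from the 83 without it in their levels per 10000 UMIs. ACTC1 had 54.6 in the spots with MYH8 and 23.0 in those without (log2 ratio 1.25, interval 1.07 to 1.43). ANKRD1 had 12.6 and 2.73 (2.20, interval 1.73 to 2.72), of which 71 UMIs came from the top spot. NES, nestin, an intermediate filament protein of immature muscle, had 8.40 and 2.37 (1.82), and CD74, the invariant chain of MHC class II, had 5.55 and 1.88 (1.55). Of the adult muscle genes, MYH1 and STRIT1 were lower in the spots with MYH8. MYH1, the fast 2X myosin heavy chain, had 23.6 and 41.1 (-0.80), and STRIT1, a small membrane protein that activates the calcium pump of the sarcoplasmic reticulum, had 6.08 and 15.7 (-1.36). MYH7 differed less, with 116 and 140. JCHAIN was level, with 2.25 and 2.18 (0.05, interval -0.71 to 0.78), and the summed general muscle genes had 185 and 168. The summed fast muscle genes were higher in the spots with MYH8, with 106 and 88.3 (0.26, interval 0.15 to 0.37), although MYH1, which is in this sum, was lower. The 5 spots with at least 5 MYH8 UMIs held 390 of the 1409 fast muscle UMIs found in spots with MYH8. The slow muscle genes had 466 and 478 (-0.04, interval -0.09 to 0.01). Connective tissue genes were higher as well, with a summed level of 245 and 197 (0.32, interval 0.25 to 0.39). The first value includes the top spot, the deepest of the group, whose level was 474. Among the connective tissue genes COL3A1 had 86.0 and 63.1 (0.45). Of its 1146 UMIs in the spots with MYH8, 212 came from the top spot. The summed macrophage genes had 11.5 and 10.3 (0.16, interval -0.17 to 0.48).

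The other position groups of the section held little MYH8. The 199 spots shared with the stored healthy section alone had 38 MYH8 UMIs and a level of 0.810, but 29 of these UMIs came from 1 spot, which also held 26 MYL4 UMIs among 5811 in all. The 92 spots found in the 16-week section alone had 7 UMIs (level 0.245), and the 709 spots shared with both healthy sections, which include 19 of the positions next to the group's main piece, had 32 (0.190). In the remaining 4 groups 12 MYH8 UMIs were counted, among them 0 in the 24 spots shared with the 2-week section alone. MYL4 was next highest in the same pair of groups, with 1.54 in the spots shared with the stored healthy section and 1.23 in those of the 16-week section alone.

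At the same 124 barcodes of the fresh healthy section MYH8 and MYL4 were nearly absent. There the spots held 1 MYH8 UMI, in 1 of 124 spots (0.806%), compared with 1.31% of the other fresh healthy spots. MYL4, MYBPH and JCHAIN had 0 UMIs in these spots, for which the exact upper limit is 2.93% of spots with a UMI. They were found in 0.0548%, 0.602% and 0.821% of the other fresh healthy spots. These shares are below the limit, so the counts of 0 cannot separate this place from the rest of that section. The median depth of the 124 fresh healthy spots was 3999.5 UMIs, more than in the 16-week section, compared with 3560 for the other fresh healthy spots.

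Adult myosin heavy chains still made up nearly all UMIs of the myosin heavy chain genes compared here in the group. Of 4971 UMIs of MYH7, MYH1, MYH8, MYH13 and MYH4 together, MYH7, the slow myosin, took 77.5%, MYH1 took 19.98% and MYH8 took 2.39% (interval 1.99 to 2.86). In the other spots these shares were 67.0%, 32.7% and 0.0829% of 107299 UMIs. MYH13 had 6 UMIs and MYH4, the fast 2B myosin, had 1 UMI in the group. These genes are close copies of each other, so reads that match more than 1 of them may be missing or misplaced. No feature carries the symbol of MYH2, the fast 2A myosin, and features without a symbol may hold it.

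Across all 2340 compared genes, 337 were 2-fold or more higher in the group than in the other spots, and 54 were 2-fold or more lower (2.31%). Against the like-depth spots 220 genes were higher and 48 lower (2.05%), and 195 higher and 41 lower genes were found in both comparisons, 57.9% and 75.9% of those against the other spots. The split moved with the scaling, since the median gene was itself 1.34-fold and 1.25-fold higher. Relative to the median gene 102 genes were higher (4.36%) and 155 lower (6.62%) against the other spots, and 86 (3.68%) and 132 (5.64%) against the like-depth spots. With mitochondrial UMIs left out, the median gene had a log2 ratio of 0.11 and 0.06. Of the 337 higher genes, 237 stayed past 2-fold without their own top spot, and 55 have no symbol. The symbol-bearing genes highest against the other spots were MYH8, JCHAIN, MYL4, NES, CD74, ANKRD1, SFRP2, HLA-DRA, GPNMB, CILP, ATOX1 and COL1A1.

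**Figure D4:**
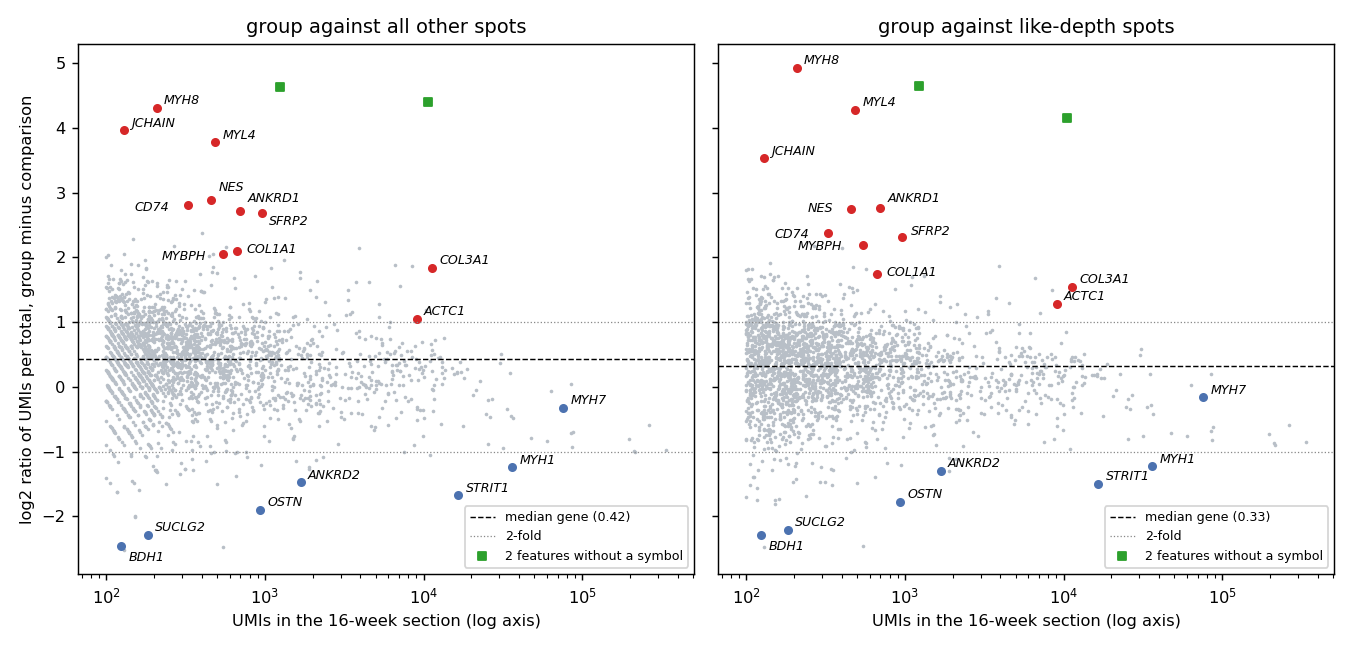
Log2 ratio of UMIs per total, group minus all other spots (left) or like-depth spots (right), against the UMIs of each gene in the 16-week section (log axis), for 2340 genes. MYH8 is at 4.32 and 4.93, and 2 features without a symbol (green) lie beside it, while the median gene is at 0.42 and 0.33.

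Genes of plasma cells and of antigen presentation were higher in the group. JCHAIN, the chain that joins secreted antibodies, had 66 UMIs in the group and 63 in the other spots, with levels of 2.21 and 0.142 (log2 ratio 3.96, interval 3.45 to 4.49) and 3.53 against the like-depth spots. It was found in 28 group spots (22.6%) and in 45 of the other spots (2.81%), and its highest counts in the group were 8 and 7. MZB1, a plasma cell chaperone below the minimum count, had 14 UMIs in each set, for levels of 0.470 and 0.0315. CD74 had 3.52 and 0.504 (2.81), and HLA-DRA, an MHC class II chain, had 3.49 and 0.670 (2.38). JCHAIN and CD74, the 2 measured members of the lymphocyte and plasma cell list, were thus past 2-fold. Beside them, 14.4% of all genes were so against the other spots and 9.4% against the like-depth spots. JCHAIN had 63 UMIs outside the group and reached the minimum only through the group, so this count was partly fixed by the minimum. The list's summed level, over members of any count, was 6.21 compared with 0.700. MS4A1, a B cell marker, had 0 UMIs in the section, and PTPRC, present on all leukocytes, had 0 in the group and 8 elsewhere. JCHAIN and MYH8 shared 11 spots, and JCHAIN was found in 26.8% of the group spots with MYH8 and 20.5% of those without.

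A pair of features that have only an identifier, singled out after their values were seen, ranked with MYH8. ENSOCUG00000027394 had 6203 UMIs in the group, 58.6% of its total in the section, with a level of 208 compared with 9.87 in the other spots (log2 ratio 4.40, interval 4.34 to 4.45). It was found in 112 group spots (90.3%), with counts of 794, 490 and 328 in the highest 3. Those 3 spots held 8, 7 and 4 JCHAIN UMIs and 1, 0 and 6 MYH8 UMIs. ENSOCUG00000025374 had 772 UMIs, in 81 group spots, and a level of 25.9 compared with 1.04 (4.64, interval 4.47 to 4.81). Their log2 ratios against the like-depth spots were 4.15 and 4.65. The spot with most MYH8 held 3 UMIs of the first and 0 of the second, so it was not the top spot of either feature. The spot with 328 UMIs of ENSOCUG00000027394 was, however, also among the 3 group spots with most MYH8. In group spots with and without MYH8, ENSOCUG00000027394 had levels of 245 and 178 (log2 ratio 0.46, interval 0.38 to 0.53). ENSOCUG00000025374 had 28.4 and 23.9 (0.25, interval 0.04 to 0.45). In the 5 spots with at least 5 MYH8 UMIs the levels were lower, at 159 and 14.9. At the same barcodes of the fresh healthy section the first feature had 2 UMIs, a level of 0.0399 compared with 0.382 in the other spots.

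Connective tissue genes were higher in the group. Of 8 measured members 6 passed 2-fold in each comparison, beside 14.4% and 9.4% of all genes, and the median log2 ratios were 1.73 and 1.43. Among the 6, COL5A2 had 22 UMIs in the group and 81 elsewhere, so it reached the minimum only through the group. The summed level of the list was 219 in the group, 75.4 in the other spots and 92.9 in the like-depth spots. The fibrillar collagens COL1A1, COL1A2 and COL3A1 had log2 ratios of 2.09, 1.87 and 1.84 against the other spots and 1.74, 1.49 and 1.54 against the like-depth spots. COL3A1 alone had a level of 73.3 compared with 20.4. FN1, fibronectin, and LUM, the proteoglycan lumican, were both at 1.63, whereas DCN, decorin, reached 0.66 and FBN1, fibrillin, 0.57. Outside the list, SFRP2, a secreted modulator of Wnt signals made by fibroblasts, was found in 70.2% of group spots and 23.0% of the others (2.69, interval 2.49 to 2.89). CILP, an extracellular matrix protein of cartilage and tendon, was at 2.18 in both comparisons, EMILIN1 of elastic fibers was at 2.05 and 1.86, and COL14A1 was at 1.89 and 1.92. ATOX1, a copper chaperone, was at 2.16 and 1.81.

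Macrophage genes also lay above the median gene. Of 6 measured members 5 passed 2-fold against the other spots and 4 against the like-depth spots, beside 14.4% and 9.4% of all genes, with medians of 1.55 and 1.27. GPNMB, a glycoprotein of lipid-laden macrophages, was at 2.29 (36 UMIs) and 1.66, CD68 at 1.96 and 1.61, and CSF1R, the receptor for the macrophage growth factor, at 1.53 and 1.27. C1QA, a complement chain, was at 1.58, while C1QB from the same complex was at 0.08 with 10 UMIs. CD163 had 0 UMIs in the group and 11 elsewhere. In the vessel list ACTA2 was at 1.09, VWF of the endothelium at 0.86 and MYH11 of smooth muscle at 0.74, all above the median gene. MYH11 was at 0.23 without its top spot, which held 13 of its 42 UMIs, below the median gene at 0.42. At matched muscle share it was at -0.01, beside 0.30 for the median gene. Below the minimum, PECAM1 had 8 UMIs in the group and 40 elsewhere, and RGS5 had 2 and 17. TEK had 0 and 39, EMCN 0 and 8, CDH5 0 and 5 and KDR 0 and 4.

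Of the 4 measured fast muscle genes, 2 were 2-fold or more lower in each comparison, beside 2.31% and 2.05% of all genes. MYH1 had a level of 33.3 in the group and 79.0 in the other spots (log2 ratio -1.24, interval -1.34 to -1.15), and ACTN3, the alpha-actinin of fast fibers, had 1.74 and 4.18 (-1.25). ATP2A1, the fast calcium pump, was at -0.51 and -0.48, and MYL1, a fast light chain, was on the other side at 0.27 and 0.35. The median of the list was -0.88 and -0.85. With comparison spots matched on muscle share it was -0.19, with MYH1 at -0.67 and ACTN3 at -0.37, both short of 2-fold, ATP2A1 at -0.01 and MYL1 at 0.63. The 8 slow muscle genes had medians of -0.39 and -0.22. In that list ATP2A2, the slow calcium pump, was at -1.01 and -0.85 and MYH7 at -0.32 and -0.16, whereas CASQ2, a calsequestrin of slow and cardiac muscle, was higher at 1.54 and 1.70. The general muscle genes lay between -0.60 for NEB, nebulin, and 0.44 for ACTN2, alpha-actinin, with a median of -0.26 and none past 2-fold. TCAP of the Z-disc was listed at 0 in the section.

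Among the lowest genes, 3 with more UMIs act in or are released by muscle fibers. STRIT1 had 340 UMIs in the group and a level of 11.4 compared with 36.6 (log2 ratio -1.68, interval -1.84 to -1.53). OSTN, a peptide hormone that muscle secretes, had 0.537 and 2.07 (-1.90, interval -2.76 to -1.24), and ANKRD2, a stretch-responsive relative of ANKRD1, had 1.31 and 3.68 (-1.48, interval -1.99 to -1.04). All 3 stayed past 2-fold lower at matched muscle share, at -1.60, -1.87 and -1.41. ANKRD1 and ANKRD2 thus lay on opposite sides of the median gene in the same spots.

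The other genes with the lowest ratios had few UMIs in the group. BDH1, which turns over ketone bodies, had 1 UMI in the group and 123 elsewhere (log2 ratio -2.47, interval -8.36 to -0.54). SUCLG2 of the citric acid cycle had 2 and 181 (-2.28, interval -5.66 to -0.73). PPP1R3C, which targets a phosphatase to glycogen, had 11 UMIs (-1.50, interval -2.58 to -0.71). ACADM of fatty acid oxidation had 2 (-1.49, interval -4.87 to 0.09), and its interval includes no difference. MTX2 and ADK had log2 ratios of -1.59 and -1.62 from 3 and 2 UMIs, and TOB1 and MIOS had -1.45 and -1.40 from 3 and 2. The interval of MIOS, -4.78 to 0.17, includes no difference as well. Against the like-depth spots the lowest also held FABP7, a fatty acid-binding protein, at -1.52 and BCKDHB, of branched-chain amino acid breakdown, at -1.48.

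Mitochondrially encoded genes were lower as a set. All 26 of the 37 that reached the minimum count lay below the median gene, with log2 ratios from -1.27 to -0.09. Their median was -0.82 against the other spots and -0.79 against the like-depth spots. Against the other spots 7 of the 26 were 2-fold or more lower, beside 2.31% of all genes.

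The remaining lists gave few measured genes. Of 3 measured genes for myogenic cells and fusion NES was at 2.88 (interval 2.59 to 3.17) and 2.75, found in 40.3% of group spots and 14.5% of the others, while VIM, vimentin, was at 0.32 and DES, desmin, at -0.34. NCAM1, a surface protein of denervated and regenerating fibers, had 11 UMIs in the group and 22 elsewhere, and CHRNA1, a subunit of the acetylcholine receptor, had 14 and 53, both below the minimum. RAPSN, which clusters that receptor, was the only measured gene of the denervation list and was at 0.55 and 0.81. In the spindle and nerve list MYH13 was at -1.06 against the other spots but 0.13 against the like-depth spots, MYH7B was at -0.64 and S100B at 0.15. CILP was the only measured gene of the myotendinous junction list, and TNMD, a tendon marker, had 6 UMIs in the group and 29 elsewhere, below the minimum. LPL and PPARG of the adipose list were at -0.10 and 0.32, and ADIPOQ had 1 UMI. PCNA, the only measured proliferation gene, was at 0.99 and 0.63, TOP2A was at 0 in the section, and FBXO32, an atrophy ubiquitin ligase, was at -0.78 with 5 UMIs. Of 12 stress and hypertrophy genes, 1 (ANKRD1) was past 2-fold higher and 1 (ANKRD2) lower against the other spots, beside 14.4% and 2.31% of all genes. Against the like-depth spots ANKRD1 and FLNC were past 2-fold higher and ANKRD2 lower, beside 9.4% and 2.05% of all genes. FLNC of the Z-disc was at 0.80 and 1.15, and the median of the list was 0.18 and 0.29. No feature carries a symbol of the blood list.

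**Figure D5:**
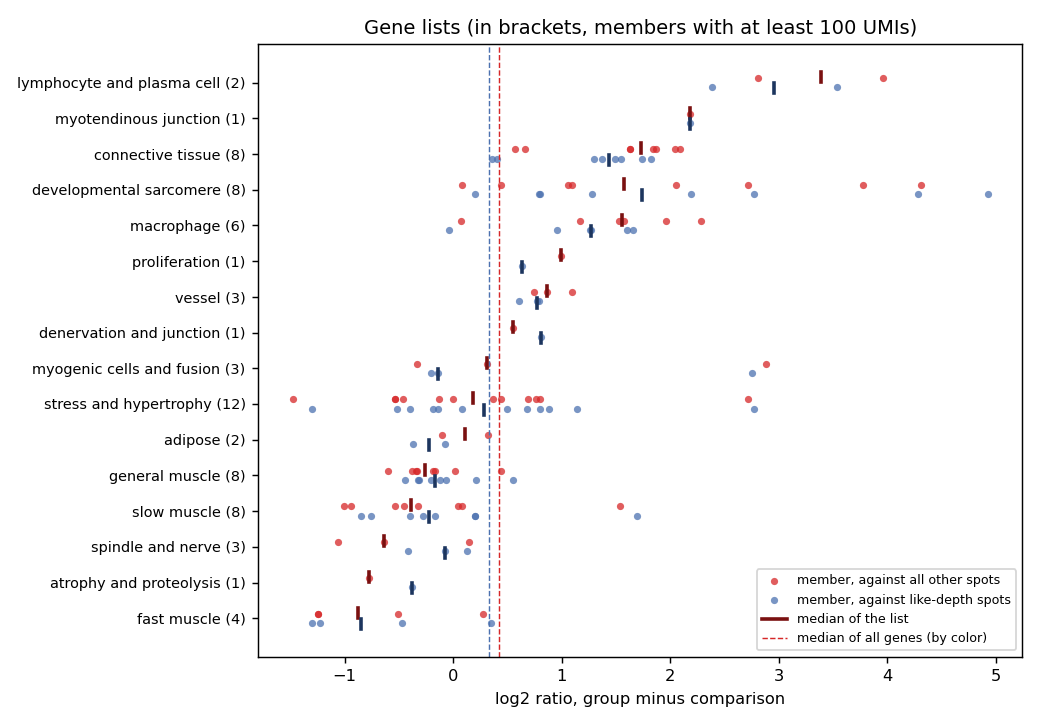
Log2 ratios of the measured members of 16 gene lists (points) and their medians (ticks), against all other spots (red) and like-depth spots (blue), with dashed lines for the median of all genes at 0.42 and 0.33. In both comparisons 8 of the 16 lists have a median above that line, led by the 2 lymphocyte and plasma cell genes, and the fast muscle list lies lowest at -0.88. Of the lymphocyte and plasma cell genes, JCHAIN reached the minimum count only through its UMIs in the group.

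The genes whose counts were placed most like those of MYH8 were ranked by the share of their group UMIs found in the 5 spots with at least 5 MYH8 UMIs. Those spots held 9.69% of all group UMIs and 52.1% of MYH8. Over the 982 symbol-bearing genes with 20 or more UMIs in the group, the median share was 9.62%. ANKRD1 had 47.4%, SPP1, the matrix protein osteopontin, had 16 of its 40 UMIs there and CCN2, a matrix protein that acts in fibrosis, had 37.1%. The others were XPOT at 39.1%, CA3, the carbonic anhydrase of slow muscle, at 34.4%, CSNK1A1 at 32.4%, RAB24 at 32.0%, WDR77 at 30.4%, and REXO2, which had 9 of 30 UMIs there. Single spots carried much of this, since the highest spot of each gene held 71 of 213 ANKRD1, 15 of 40 SPP1, 11 of 35 CCN2 and 23 of 90 CA3 UMIs.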

How the data were processed

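Visium 3′ libraries of 4 sections of rabbit supraspinatus muscle were used. Per the study's methods and labels, the authors aligned images by hand in Loupe Browser 5.0 and counted UMIs with Space Ranger 1.2.0 on OryCun2.0 with Ensembl release 104. The deposited counts are unnormalized UMIs per gene and spot under tissue, with total counts of 4079313 to 12536450 per section. Symbols came from the count table, since 0 identifiers matched the annotation table of the second assembly given here.

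All spots and genes were kept, and no doublet caller was run. Log2 ratios compare UMIs per total with 0.5 UMI added, for genes with at least 100 UMIs in the section. This minimum includes the group's UMIs, so MYH8, JCHAIN and COL5A2, each below it outside the group, passed only through the group. Sums carry exact Poisson, shares exact Clopper-Pearson and ratios exact conditional 95% intervals. With 1 section per condition no test was run, and spots are not replicates. Like-depth spots were the 5 nearest in log2 UMIs, without replacement. Named genes were MYH8, MYL4, list members and the 12 highest and 12 lowest with a symbol in each comparison, some of which are not reported here. Other genes, MZB1 and genes below the minimum among them, were named after their values were seen. The group and the 17 lists (207 genes) were chosen with earlier results of these data known.

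The steps were run in Python 3.11.15 with pandas 2.3.3, numpy 2.4.6 and scipy 1.17.1 and were tested on simulated data. Figures came from matplotlib 3.10.9.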

Additional observations from a re-analysis of the deposited data

How the results depend on the processing

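No ratio of MYH8 or MYL4 changed direction. Against the other spots the log2 ratio of MYH8 was 3.84 with spots thinned to 1000 UMIs, 3.84 without the group spot with most MYH8, and 3.61 without the 3 highest group spots. It was 4.88 without the single other spot with most MYH8. Against matched spots it was 3.56 with matching on non-mitochondrial UMIs and 3.65 with matching on UMIs and muscle share, where MYL4 had 3.84 and 3.75. MYL4 against the other spots was 3.46 without mitochondrial genes. The counts of genes past 2-fold moved more. Against the other spots they were 595 higher and 127 lower at a minimum of 50 UMIs, 170 and 34 at 200 UMIs, 147 and 97 without mitochondrial genes, 102 and 155 scaled by the median gene and 98 and 30 in thinned spots, which have fewer UMIs per gene. The higher and lower counts were 237 and 107 without each gene's top spot, and 422 and 27 with 2 UMIs added. Against like-depth spots they were 430 and 129 at 50 UMIs and 112 and 26 at 200. The higher count was 338 with matching on non-mitochondrial UMIs, and the lower count 109 without each gene's top spot. The share of spots with MYH8 was 24.8% and 1.42% after thinning, 14.5% and 0.437% at 2 or more UMIs, and 4.03% and 0.125% at 5 or more, in the group and the other spots. Median UMIs without mitochondrial genes were 1519.5 and 1483, so the order of the medians was reversed. The number of lists above the median gene stayed at 8 in both comparisons at 50 UMIs and with scaling by the median gene. Leaving out the 3 highest spots, leaving out the other spot with most MYH8 and averaging single spots were added after seeing the data. No paired analysis was possible because there was 1 section per condition and no test. The cause of these moves was not tested.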

Other observations

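The single other spot with a high MYH8 count, in the position group shared with the stored healthy section, had 29 MYH8 and 26 MYL4 UMIs among 5811, and it alone held 32.6% of the MYH8 UMIs found outside the group. By section, the level of MYH8 per 10000 UMIs was 2.39 at 2 weeks, 0.700 in stored healthy, 0.438 at 16 weeks and 0.118 in fresh healthy muscle. MYL4 had another order, with 1.02 at 16 weeks, 0.287 at 2 weeks, 0.107 in stored healthy and 0.00142 in fresh healthy muscle, where it had 1 UMI. In the group the levels of both, 3.99 and 7.82, were above those of all 4 sections as a whole. The group is a part picked for its MYH8, and no part of another section picked in the same way was compared. For ANKRD1 the group's 7.14 was above the level of its own section (1.47). It was near those of the 2-week (7.01) and stored healthy (5.92) sections and below that of the fresh healthy section (22.3).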
